A study of Mus musculus with 138 samples.

Results

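The sagittal suture joins the left and right parietal bones along the midline of the skull roof. The libraries described here are the 10 laser-captured libraries of this suture at E18.5 (embryonic day), 5 of the suture mesenchyme (SM) and 5 of the parietal osteogenic front (OF), chosen by the labels for suture, stage and region, out of 138 samples in the series. The other samples are captures of the coronal, frontal and lambdoid sutures at E16.5 and E18.5, the sagittal suture at E16.5, undivided sutures and single cells of the coronal suture. All embryos were wild-type C57BL/6J mice, and no treatment or mutant allele entered the comparison. Each replicate number holds 1 SM and 1 OF library with the same litter identifier, so the libraries form 5 pairs, of which replicates 1 to 3 came from one litter and replicates 4 and 5 from another. Captured RNA was amplified before library preparation, and the deposited values are read pairs counted per gene without regard to strand. The question put to these libraries was which genes separate the mesenchyme between the bones from the growing bone edge.

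In membranous bones of the skull, mesenchymal cells at the bone edge proliferate, become preosteoblasts under the transcription factors Runx2 and Sp7, and then secrete and mineralize a matrix built on type I collagen. The suture mesenchyme between the edges stays unossified and is known as a source of osteogenic cells and as a soft connective tissue joint. Hedgehog, FGF, BMP, TGF-beta and Wnt signals pass between these regions, and mutations in many of their components are known to fuse sutures early.

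The 10 libraries held 13162255 to 16871945 counted read pairs and 24088 to 26651 genes with a count. Mitochondrial genes took 14.3% to 19.2% of the counts in OF and 16.2% to 22.1% in SM. In every pair the mitochondrial share and the number of genes with a count were both higher in SM. On the first principal component the regions were separated, and on the second the litters were. Red cell genes moved with the litter, and none of them passed the test between the regions: the 7 red cell markers summed to 1364 to 5925 CPM (counts per 1000000) in the 6 libraries of replicates 1 to 3 and to 178 to 199 CPM in the 4 libraries of replicates 4 and 5. Neuron markers did likewise, with sums of 62.0 to 185 CPM against 22.3 to 27.0 CPM. Because every pair lies within 1 litter, each comparison of OF with SM was also made within each litter.

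**Figure D1:**
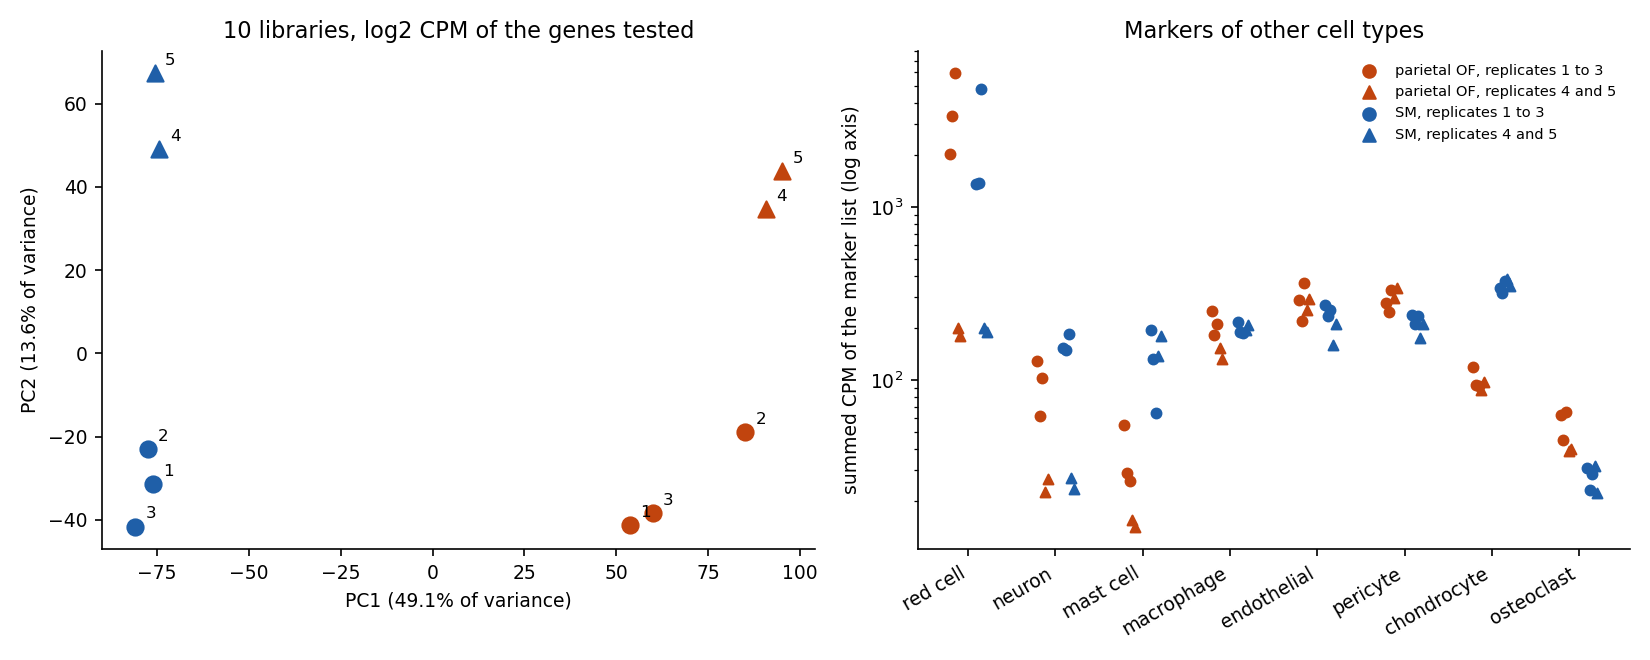
Left, the 10 libraries on the first and second principal components of log2 CPM, with replicate numbers; right, the summed CPM (log axis) of 8 marker lists in each library. Red and blue are parietal OF and SM, circles are replicates 1 to 3 and triangles replicates 4 and 5; red cell sums are 178 to 199 CPM in every triangle and at least 1364 CPM in every circle, whichever the region.

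Across the 19768 genes tested, 2871 (14.5%) were higher in the OF and 2137 (10.8%) were higher in the SM, 5008 (25.3%) in all, at an adjusted p under 0.05 in edgeR's quasi-likelihood test. Fold changes are given throughout as log2 of OF over SM with their standard error (SE), so that positive values are higher in OF, and mean levels as CPM with the SD of 5 libraries. The median over all genes tested was -0.02. Of the genes called, 468 were at least 4-fold higher in OF and 636 at least 4-fold higher in SM. The 5 libraries of one region lay wholly above the 5 of the other for 3273 genes (16.6%) in the OF direction and 2907 genes (14.7%) in the SM direction. Within each litter 5004 of the 5008 genes kept their direction, and 1868 passed the test in both. These genes were called on the same 10 libraries, so their direction within the litters is not independent evidence. Fitted on their own, without the other sutures and ages, the 10 libraries gave 8441 calls among 18350 genes, 4378 higher in OF and 4063 higher in SM. In bulk RNA of a captured region, fewer cells of a type and less RNA per cell cannot be told apart.

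**Figure D2:**
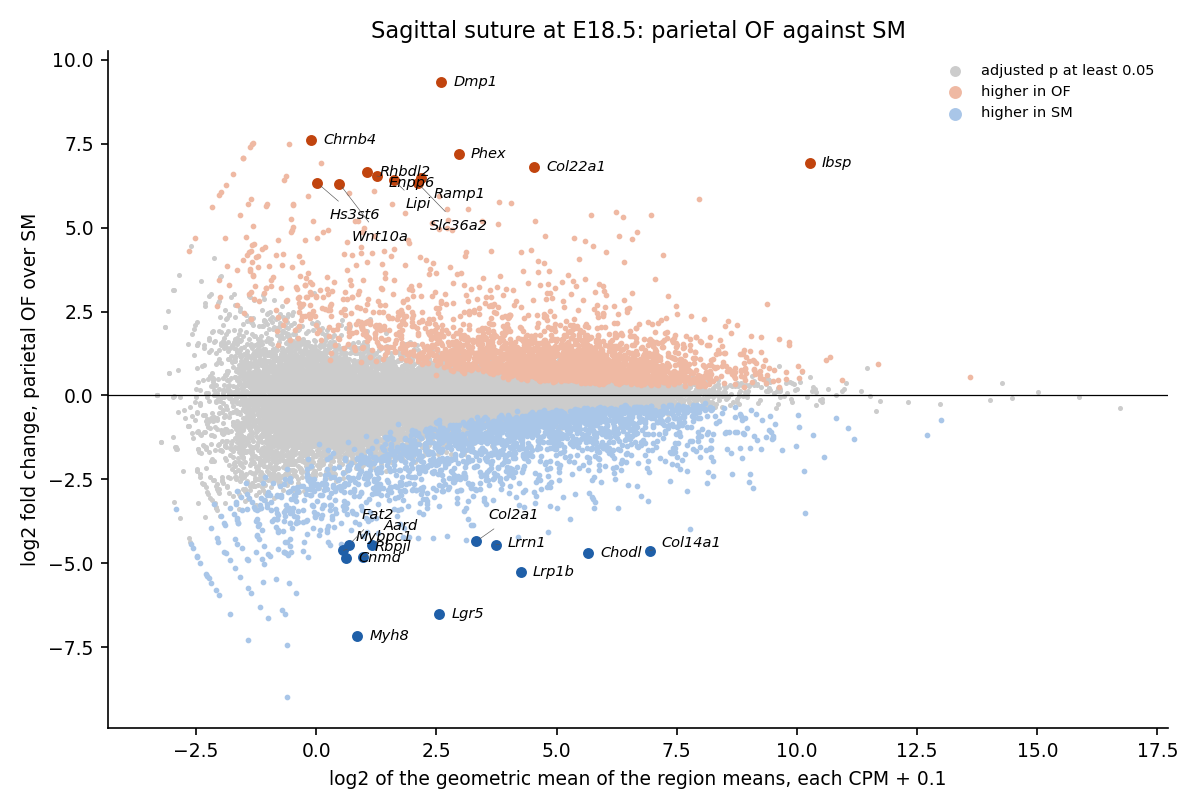
Each point is 1 of the 19768 genes tested, with the log2 of the geometric mean of its OF and SM mean CPM (each + 0.1) on the x axis and the log2 fold change of OF over SM on the y axis; grey points did not pass the test. The named points are the 12 genes of each direction with the largest fold change among those with at least 5 CPM in the higher region and no overlap of libraries, from Dmp1 at 9.35 to Myh8 at -7.16.

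The genes with the largest difference towards the OF were made up in part of genes of mineralizing osteoblasts. Dmp1, an acidic matrix phosphoprotein of late osteoblasts and osteocytes, read 119.9, 160.2, 147, 127 and 84.3 CPM in OF replicates 1 to 5 and 0.454, 0.274, 0.0734, 0.13 and 0 CPM in SM replicates 1 to 5. Phex, a membrane endopeptidase known for its part in phosphate handling, read 73.6, 123, 91.9, 70.4 and 75 CPM in OF against 0.713, 0.548, 0.954, 0.455 and 0.317 CPM in SM. Neither gene overlapped between the regions, which the choice of these genes required, and both SM groups stayed under 1 CPM. The fold changes were 9.35 ± 0.99, adjusted p = 5.07e-13 for Dmp1 and 7.18 ± 0.70, adjusted p = 1.44e-14 for Phex, and that of Dmp1 was 9.97 without SM replicate 1.

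Ibsp, which codes for bone sialoprotein, was the most abundant of these genes, with 9556, 20481, 10422, 13142 and 13779.9 CPM in OF and 302, 87.5, 21.4, 107 and 41.9 CPM in SM. The lowest OF library was more than 30 times the highest SM library, SM replicate 1, and SM libraries themselves spread over more than 10-fold. Its fold change was 6.91 ± 0.88, adjusted p = 4.52e-10, and 7.69 without SM replicate 1. Per kb of exon, Ibsp stood at 6517 CPM per kb in OF and at 54.1 CPM per kb in SM.

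The other named genes of this kind covered quite different functions. Col22a1, a collagen found at tissue junctions, averaged 241 ± 61.7 CPM in OF and 2.14 ± 2.17 CPM in SM (log2 fold change 6.80 ± 0.64). Ramp1, a partner of the receptor for the neuropeptide CGRP, averaged 38.6 ± 16.4 against 0.433 ± 0.522 CPM (6.48 ± 0.75). Enpp6, a choline-releasing phosphodiesterase, stood at 19.3 ± 3.41 against 0.196 ± 0.163 CPM (6.54 ± 0.79), and the secreted Wnt ligand Wnt10a at 9.21 ± 1.91 against 0.109 ± 0.209 CPM (6.31 ± 0.84). In SM, Wnt10a held 1 count in replicate 1, 7 in replicate 2 and 0 in the others, so the size of its fold rests on replicate 2. The rhomboid protease Rhbdl2 (6.65 ± 0.83), the lipase Lipi (6.41 ± 0.68), the heparan sulfate sulfotransferase Hs3st6 (6.33 ± 0.87) and the amino acid transporter Slc36a2 (6.32 ± 0.68) completed the group together with Chrnb4. For Chrnb4, a nicotinic acetylcholine receptor subunit, OF libraries read 6.48, 8.18, 7.77, 7.89 and 3.68 CPM, while SM held 1 count in each of 2 libraries and 0 in the other 3, so no fold is given. Other folds also moved with 1 SM library: without SM replicate 1 they were 7.56 for Col22a1, 7.14 for Hs3st6, 7.10 for Lipi, 7.26 for Rhbdl2 and 7.94 for Slc36a2, and without SM replicate 3 7.43 for Ramp1. All 12 of these genes passed the test in every one of the 26 alternative analyses. They were chosen for passing, for no overlap and for large folds in these same libraries, so this is not independent evidence.

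Of 22 genes of bone matrix and mineralization, all tested, 16 were higher in OF, 1 was higher in SM and 5 did not pass the test, with a median log2 fold change of 1.81 against -0.02 over all genes. Alpl, the phosphatase that removes the mineralization inhibitor pyrophosphate, read 441, 449.5, 474, 346 and 331 CPM in OF and 32.6, 18, 16.8, 6.75 and 2.16 CPM in SM. In SM the level was lower in replicates 4 and 5 than in replicates 1 to 3, and the regions did not overlap. Its fold change was 4.74 ± 0.34, adjusted p = 1.13e-20, and within the litters 4.34 for replicates 1 to 3 and 6.25 for replicates 4 and 5. Ifitm5, a membrane protein of osteoblasts that is mutated in a form of brittle bone disease, averaged 338 ± 63.7 against 8.15 ± 5.85 CPM (5.37 ± 0.45). The keratan sulfate proteoglycan osteomodulin, Omd, averaged 54.2 ± 13.5 against 2.73 ± 0.976 CPM (4.31 ± 0.37). The cytokine receptor Lifr averaged 136 ± 19 against 47.2 ± 5.74 CPM (1.53 ± 0.15).

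Osteopontin, Spp1, varied more than 2-fold among the OF libraries, at 282, 492, 571, 703 and 316 CPM, against 15.8, 21.9, 17.4, 18 and 21.1 CPM in SM. Every OF library nevertheless lay above every SM library (4.65 ± 0.70, adjusted p = 5.53e-08). The bone cadherin Cdh11 went the other way, at 557 ± 59.5 CPM in OF and 998 ± 38.4 CPM in SM (-0.84 ± 0.13).

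Neither chain of type I collagen passed the test. Col1a1, the chain most abundant in bone and in other dense connective tissue, read 33325, 39032, 33657, 33972 and 31518 CPM in OF and 31926, 28976, 26985, 36448 and 36582 CPM in SM, overlapping widely. Its fold change was 0.09 ± 0.18, adjusted p = 0.784 in all 10 libraries, 0.27 within replicates 1 to 3 and -0.16 within replicates 4 and 5. For Col1a2, OF libraries read 21058, 25199, 21442, 22401 and 22397 CPM and SM libraries 15485, 15839.6, 15857, 20065 and 20083 CPM, which did not overlap, with a fold change of 0.37 ± 0.16, adjusted p = 0.0847. With the replicate number as a block Col1a2 passed (adjusted p = 0.0229). Col1a1 was thus abundant in SM as well, at 4904 CPM per kb of exon against 5226 CPM per kb in OF.

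The stretch just upstream of the start of these genes is shown because Runx2, which binds the letters TGTGGT, is the defining factor of the lineage, and 16 of the 22 bone matrix genes were higher in OF. In RefSeq promoters (build GRCm38.p6), matched by symbol for 11941 of the 19768 genes tested, the 250 bases before the start held TGTGGT on either strand in 10.8% of all genes, 10.2% of the 2113 genes higher in OF and 9.26% of the 1414 genes higher in SM. Among the bone matrix genes higher in OF, 4 of the 12 with a sequence held it (33.3%), and among the 12 genes of largest difference towards OF, 1 of 7. Dmp1 is that gene, and Spp1, Bglap (osteocalcin) and Enpp1 (the enzyme that makes pyrophosphate) are 3 of the 4 bone matrix genes with the motif, shown because their RefSeq start lies within 7 bases of the start in the count files. For the other, Serpinf1, the starts were 78 bases apart. Among the 12 they were 38958 bases apart for Lifr, 3103 for Sparc and 116 for Ibsp, which did not hold the motif. Those windows may not be the promoters of the counted starts. Capitals mark ACCACA, which is how that motif reads from the opposite strand, and each sequence is read 5′ to 3′ on the strand of its gene, Dmp1 from chr5:104202367-104202616 on the plus strand, Spp1 from chr5:104434861-104435110 on the plus strand, Bglap from chr3:88384467-88384716 on the minus strand and Enpp1 from chr10:24712160-24712409 on the minus strand.
Dmp1: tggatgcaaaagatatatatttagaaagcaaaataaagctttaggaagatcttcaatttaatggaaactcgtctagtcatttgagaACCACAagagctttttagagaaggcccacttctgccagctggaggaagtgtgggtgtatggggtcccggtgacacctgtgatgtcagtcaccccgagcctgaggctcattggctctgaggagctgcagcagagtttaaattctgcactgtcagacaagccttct
Spp1: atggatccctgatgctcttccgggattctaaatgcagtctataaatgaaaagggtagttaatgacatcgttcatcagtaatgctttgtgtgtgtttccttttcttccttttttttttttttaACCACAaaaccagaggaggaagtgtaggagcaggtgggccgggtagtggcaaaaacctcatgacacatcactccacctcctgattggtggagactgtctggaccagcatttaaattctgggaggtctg
Bglap: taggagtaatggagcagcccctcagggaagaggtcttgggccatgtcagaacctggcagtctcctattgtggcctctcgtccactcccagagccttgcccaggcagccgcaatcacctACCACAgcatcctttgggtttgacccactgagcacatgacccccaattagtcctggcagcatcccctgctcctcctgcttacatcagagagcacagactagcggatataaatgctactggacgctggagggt
Enpp1: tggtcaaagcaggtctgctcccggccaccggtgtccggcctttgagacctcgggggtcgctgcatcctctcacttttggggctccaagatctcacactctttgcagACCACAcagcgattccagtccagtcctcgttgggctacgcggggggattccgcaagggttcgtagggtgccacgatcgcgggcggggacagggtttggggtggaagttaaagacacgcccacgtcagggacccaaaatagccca
A match of letters is a description only, and no binding was measured. Bglap itself was low, with 1.42, 3.35, 4.95, 3.18 and 3.08 CPM in OF and 0, 0, 0.0734, 0.195 and 0 CPM in SM. It has near-identical neighbours, and read pairs that map to more than 1 place were not counted, so its level may be understated. Enpp1 averaged 85.7 ± 16.3 CPM in OF and 21.3 ± 2.79 CPM in SM (2.01 ± 0.33).

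Of 10 genes of late osteoblasts and osteocytes, 8 were tested, 6 were higher in OF and 1 in SM (median log2 fold change 1.97). Beside Dmp1 and Phex, the homeobox gene Irx5 (1.38 ± 0.26) and the secreted kinase Fam20c (2.55 ± 0.52) were higher in OF, and the corneal and tendon proteoglycan keratocan, Kera, was higher in SM at 0.0754 ± 0.133 CPM in OF against 2.16 ± 1.43 CPM. Fgf23 and Sost, made by mature osteocytes, were too low to be tested.

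Osteoblast transcription factors divided, with 13 of 20 higher in OF and 4 higher in SM (median 0.89). Sp7 (osterix), required for osteoblasts to form, read 356, 371, 345, 291 and 309 CPM in OF and 30.4, 26, 23.5, 13.1 and 12.4 CPM in SM. Runx2, which acts before Sp7, read 600.2, 545, 569.9, 587 and 581 CPM in OF and 430.2, 414, 413, 366 and 359.8 CPM in SM. For both genes every OF library was above every SM library, but the size differed, from 3.99 ± 0.32, adjusted p = 1e-18 for Sp7 to 0.54 ± 0.13, adjusted p = 0.00101 for Runx2. Within replicates 1 to 3 the Runx2 difference was 0.45 with an adjusted p of 0.0724, and within replicates 4 and 5 it was 0.69 with 0.0208. The muscle and bone factor Mef2c averaged 447 ± 63.7 against 56.9 ± 26 CPM (2.97 ± 0.24) and Runx3 36.1 ± 3.37 against 4.08 ± 1.13 CPM (3.14 ± 0.30). The 4 factors higher in SM were the zinc finger protein Zfp521 (-1.60 ± 0.13), the homeobox gene Msx2 (-1.56 ± 0.22), Sox4 (-1.98 ± 0.29) and Nfatc1 (-0.76 ± 0.17).

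**Figure D3:**
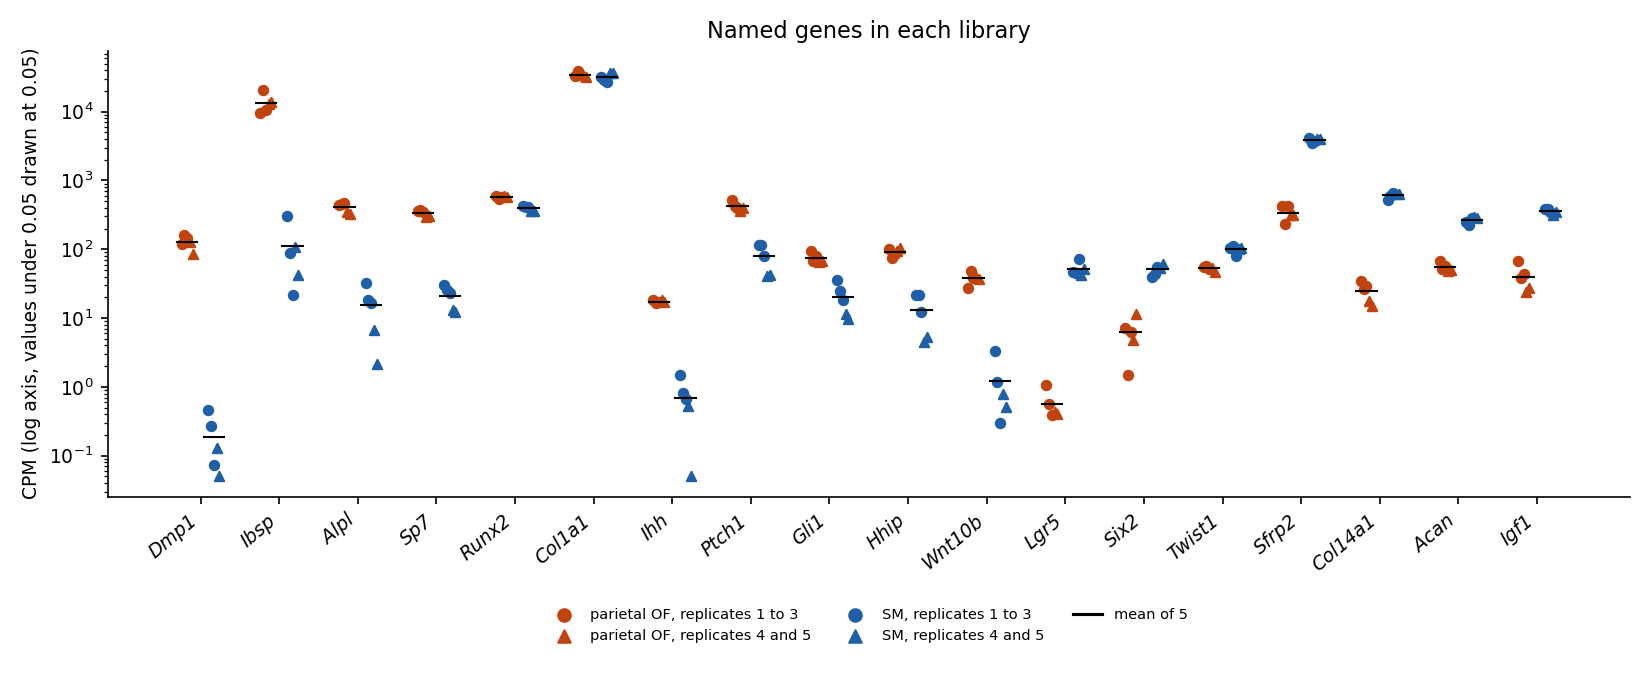
CPM (log axis, values under 0.05 drawn at 0.05) of 18 named genes in each of the 10 libraries, with bars at the means; red is parietal OF and blue is SM, circles are replicates 1 to 3 and triangles replicates 4 and 5. Col1a1 overlaps between the regions, and the other 17 genes do not.

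Genes for making and exporting protein were higher in the OF almost throughout. In the list of the secretory pathway and unfolded protein response, 31 of 33 genes tested were higher in OF and 0 in SM (median 1.26, 0 in SM also at an unadjusted p under 0.05 and in DESeq2 and limma-voom), and the 2 that did not pass were Creb3l2 and Ddit3. The endoplasmic reticulum chaperone Hsp90b1 read 1353, 1754, 1319, 1708 and 1780.4 CPM in OF and 532, 557, 407, 590.3 and 567 CPM in SM, without overlap (1.58 ± 0.16, adjusted p = 7.94e-14). Lman1, the receptor that carries cargo out of the endoplasmic reticulum, averaged 486 ± 43.5 against 173 ± 12.6 CPM (1.49 ± 0.14), the stress-induced factor Manf 131 ± 15.6 against 25.8 ± 5.396 CPM (2.34 ± 0.22) and the lectin chaperone calnexin, Canx, 517 ± 52.3 against 216 ± 15.5 CPM (1.26 ± 0.12).

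Collagen-processing enzymes split more evenly, with 16 of 31 higher in OF and 6 higher in SM (median 0.57). The prolyl 4-hydroxylase subunits, which stabilize the collagen triple helix, were among the former. P4ha1 read 664, 1138, 864, 907 and 862 CPM in OF and 199.5, 219.5, 197.5, 221 and 205 CPM in SM, without overlap (2.09 ± 0.18, adjusted p = 4.68e-17), and P4ha2 (2.26 ± 0.21) and P4hb (1.69 ± 0.16) moved with it. Lysyl oxidases, which crosslink collagen and elastin, went both ways: Loxl4 averaged 79 ± 7.48 CPM in OF against 2.3 ± 0.645 CPM in SM (5.10 ± 0.48) and Loxl3 7.25 ± 1.08 against 36.3 ± 4.41 CPM (-2.32 ± 0.35). The third hydroxylase alpha subunit, P4ha3 (-1.56 ± 0.24), the procollagen C-proteinase Bmp1 (-0.94 ± 0.16) and the N-proteinase Adamts2 (-0.76 ± 0.18) were higher in SM.

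Of 19 genes of sterol synthesis and uptake, 16 were higher in OF and 0 in SM (median 1.498, 0 in SM also without adjustment and with the other tools). Msmo1, a sterol methyl oxidase, read 27.1, 35.7, 18.7, 38.1 and 39.7 CPM in OF and 4.34, 4.25, 3.08, 3.64 and 5.33 CPM in SM, without overlap (2.94 ± 0.37, adjusted p = 2.62e-10). Cyp51, the lanosterol demethylase, averaged 75.9 ± 22.6 against 20.1 ± 4.06 CPM (1.92 ± 0.23) and squalene epoxidase, Sqle, 51.4 ± 12.6 against 13.7 ± 1.11 CPM (1.91 ± 0.24). Glycolysis and hypoxia genes followed with 15 of 25 higher in OF and 2 in SM (median 1.04). Phosphoglycerate kinase, Pgk1 (2.08 ± 0.21), and lactate dehydrogenase A, Ldha (1.77 ± 0.20), were higher in OF, as was P4ha1, which is also in this list. The 2 members higher in SM were the angiogenic factor Vegfa (-0.51 ± 0.16) and carbonic anhydrase 9, Car9 (-1.72 ± 0.60). Neither of the latter passed the test within either litter, and the call of Car9 was lost without OF replicate 1, OF replicate 2 or SM replicate 3 (largest adjusted p over the left-out libraries and pairs 0.119).

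Cell cycle genes were higher in the OF in 33 of 38 cases and in the SM in 0 (median 1.34, 0 in SM also without adjustment and with the other tools). Cyclin D1, Ccnd1, which drives entry into the cycle, read 89.6, 77.6, 86.2, 85.2 and 117 CPM in OF and 23.6, 19.95, 16.8, 16.4 and 16.6 CPM in SM. Top2a, a topoisomerase of dividing cells, read 317, 335, 273, 367 and 403 CPM in OF and 121, 143, 108, 112 and 98.8 CPM in SM. Neither overlapped between regions, with fold changes of 2.29 ± 0.23, adjusted p = 2.07e-14 and 1.54 ± 0.17, adjusted p = 1.88e-12. Cyclin A2, Ccna2 (1.73 ± 0.18), and Cdk1 (2.04 ± 0.22) were higher by like amounts. SM levels of Top2a, at 116 ± 16.9 CPM, remained well above 0.

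Turning to the SM, Lgr5, a receptor for R-spondins, read 1.07, 0.558, 0.386, 0.428 and 0.402 CPM in OF and 46.9, 45.3, 72.5, 42.5 and 52.3 CPM in SM. Col14a1, the chain of collagen XIV that coats collagen fibrils, read 34.6, 26.1, 29.5, 17.5 and 15.1 CPM in OF and 519, 594, 651, 630.4 and 632 CPM in SM. In both cases the lowest SM library was more than 10 times the highest OF library. Their fold changes were -6.50 ± 0.72, adjusted p = 1.88e-12 and -4.62 ± 0.55, adjusted p = 2.81e-11. Chondrolectin, Chodl, averaged 9.8 ± 2.1 CPM in OF and 257 ± 31.4 CPM in SM (-4.71 ± 0.50), and the lipoprotein receptor Lrp1b 3.03 ± 0.752 against 116 ± 6.72 CPM (-5.26 ± 0.73).

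Myh8, the perinatal myosin heavy chain of skeletal muscle, had the largest fold change of the named SM genes, at 0, 0.248, 0.0643, 0 and 0.201 CPM in OF and 16.46, 15.4, 12.5, 17.9 and 17.9 CPM in SM (-7.16 ± 0.85, adjusted p = 2.98e-11). The defining markers of muscle did not pass: Myh3 averaged 0.422 ± 0.755 CPM in OF and 0.499 ± 0.651 CPM in SM, Acta1 0.129 ± 0.137 and 0.188 ± 0.16 CPM, and Myod1 and Myog were too low to be tested. Of the 5 skeletal muscle markers tested, Myh8 alone passed the test. Tnnt3, a fast troponin T, read 1.14, 0.805, 0.771, 0.918 and 0.804 CPM in OF and 2.14, 3.36, 2.42, 2.47 and 1.78 CPM in SM, higher in every SM library at a low level, and did not pass (-1.45 ± 0.79, adjusted p = 0.189). In a fit of the 10 libraries alone it did (adjusted p = 0.00233).

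Some cartilage genes, but not all, were higher in SM. Col2a1, type II collagen, read 3.63, 1.05, 1.35, 2.57 and 2.21 CPM in OF and 46.7, 47.8, 48.3, 41.8 and 36.2 CPM in SM, and the proteoglycan aggrecan, Acan, 67.7, 51.2, 57.2, 47.6 and 50.3 CPM in OF and 246, 226, 280.3, 299 and 282 CPM in SM. Both were higher in every SM library than in any OF library (-4.35 ± 0.66, adjusted p = 7.52e-08 and -2.28 ± 0.25, adjusted p = 2.38e-12). Of the 8 chondrocyte markers tested, these and Col9a2 were higher in SM and the link protein Hapln1 was higher in OF, though Hapln1 passed within neither litter. Matn1 averaged 0.039 ± 0.0566 CPM in OF and 0.202 ± 0.197 CPM in SM, and Matn3 and Snorc were too low to be tested. Cnmd (chondromodulin) was higher in SM at 0.233 ± 0.115 against 6.97 ± 3.65 CPM (-4.85 ± 0.88), as were the leucine-rich repeat protein Lrrn1 (-4.45 ± 0.71), the transcription factor Rbpjl (-4.82 ± 0.86), the muscle protein Mybpc1 (-4.62 ± 1.02, and -5.86 without OF replicate 1) and Aard (-4.45 ± 1.12). The giant cadherin Fat2, also higher in SM, read 1.496, 0, 0, 0 and 0 CPM in OF and 5.96, 7.47, 11.7, 3.9 and 2.98 CPM in SM, so no fold is given. Within replicates 4 and 5, Aard (adjusted p 0.075) and Mybpc1 (0.0611) did not pass the test.

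Transcription factors of skull mesenchyme were higher in SM in 18 of 34 cases and in OF in 1, Prrx2 (median -1.20). Six2, a homeobox gene that marks suture mesenchyme, read 7.19, 1.49, 6.23, 4.83 and 11.3 CPM in OF and 39.3, 44.2, 56, 52.9 and 61.8 CPM in SM. Twist1, whose loss of function is known to fuse the coronal suture, read 56.1, 56.5, 51.4, 53.7 and 47.4 CPM in OF and 104, 111, 80.1, 99.8 and 105 CPM in SM. Neither overlapped, with fold changes of -3.03 ± 0.29, adjusted p = 2.91e-15 and -0.92 ± 0.18, adjusted p = 3.59e-05. Foxp2, a forkhead repressor, averaged 68.3 ± 18.3 CPM in OF against 397 ± 42.8 CPM in SM (-2.54 ± 0.23), Sox5 23.2 ± 1.25 against 108 ± 5.17 CPM (-2.22 ± 0.21) and the zinc finger gene Zic1 77 ± 11 against 301 ± 22.3 CPM (-1.96 ± 0.19). The paired-related homeobox genes parted, Prrx1 being higher in SM (-1.04 ± 0.11) and Prrx2 in OF (0.71 ± 0.21), though the Prrx2 difference passed within neither litter.

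Of 17 genes of elastic fibres, 10 were higher in SM and 0 in OF (median -1.25, 0 in OF also without adjustment and with the other tools, and 1 in OF in the 10 libraries alone). Fibrillin 2, Fbn2, read 263, 159, 285, 171 and 162 CPM in OF and 1158, 1189, 1493, 1643 and 1612 CPM in SM, without overlap (-2.77 ± 0.30, adjusted p = 7.89e-13), and elastin, Eln (-1.64 ± 0.21), Mfap4 (-2.35 ± 0.22) and fibulin 5, Fbln5 (-2.53 ± 0.29), followed. Of 18 tendon and ligament genes tested, 10 were higher in SM and 1, the immediate early gene Egr1, in OF (median -1.59). Thrombospondin 2, Thbs2, read 922, 672, 806, 788 and 842 CPM in OF and 2612, 2796, 3015, 3011 and 2877 CPM in SM (-1.83 ± 0.14, adjusted p = 3.45e-19). Scx, the transcription factor of tendon progenitors, averaged 3.71 ± 0.516 CPM in OF and 33.1 ± 18.3 CPM in SM (-3.15 ± 0.61), and tenomodulin, Tnmd, 40.9 ± 4.86 against 126 ± 34.1 CPM (-1.62 ± 0.34).

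Small leucine-rich proteoglycans, which bind collagen fibrils, were higher in SM for 9 of 15 genes and in OF for 2, Omd and Chad (median -1.08). Their OF share was 13.3%, near the 14.5% of all genes. Decorin, Dcn, read 182, 141, 129.9, 93.4 and 101.02 CPM in OF and 539, 573, 672, 702 and 637 CPM in SM, without overlap (-2.27 ± 0.28, adjusted p = 1.9e-10), and biglycan, Bgn (-1.30 ± 0.18), osteoglycin, Ogn (-2.04 ± 0.27), and fibromodulin, Fmod (-1.92 ± 0.27), went with it. With the replicate number as a block Chad no longer passed (adjusted p 0.0528), and leaving out single libraries or pairs raised its adjusted p to at most 0.199. Among 34 collagen chains, 12 (35.3%) were higher in SM and 6 (17.6%) in OF (median -0.62), against 10.8% and 14.5% of all genes. Col12a1 (-1.17 ± 0.13), Col16a1 (-1.58 ± 0.18) and Col27a1 (-1.57 ± 0.17) were with Col14a1 on the SM side, and Col11a2 (5.45 ± 0.42), Col24a1 (2.21 ± 0.22) and Col13a1 (2.68 ± 0.40) with Col22a1 on the OF side. Of 20 fibroblast genes, 5 were higher in SM and 2 in OF (median -0.78), and of 23 metalloproteinases and inhibitors 6 were higher in SM, among them Mmp2 (-1.72 ± 0.20), Mmp14 (-1.08 ± 0.15) and Timp2 (-1.20 ± 0.15), and 3 in OF, Timp1 (2.84 ± 0.28), Adamts9 (0.75 ± 0.20) and Mmp8 (3.01 ± 1.01). Without OF replicate 2 or SM replicate 5 Mmp8 no longer passed (largest adjusted p over the left-out libraries and pairs 0.126), and without SM replicate 1 its difference was 3.61.

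Markers of some other cell types also moved with the region, and their part in the differences of the soft tissue genes was not tested. Of 5 mast cell markers tested, 4 were higher in SM and 0 in OF (0 in OF also without adjustment and with the other tools), and the list summed to 14.1 to 54.6 CPM in OF against 63.9 to 194 CPM in SM. Cma1, a mast cell protease, read 14.1, 7.06, 3.34, 2.45 and 1.94 CPM in OF and 47.6, 40.5, 17.1, 45.1 and 67.2 CPM in SM, and Cpa3, another, 19.3, 9.23, 5.01, 4.34 and 4.62 CPM in OF and 95.3, 58.4, 26.1, 59.2 and 71.8 CPM in SM. Neither overlapped, but within replicates 1 to 3 none of the mast cell genes passed the test, with Cma1 at -2.10 there against -4.67 within replicates 4 and 5 and -3.52 without OF replicate 1. Markers of dura and arachnoid summed to 193 to 211 CPM in OF and 433 to 483 CPM in SM, with 4 of 11 higher in SM, of which Zic1, Foxc1 and Tbx18 are also in the skull mesenchyme list. Zic1 alone made up most of the gap between these sums, and Tbx18 passed within neither litter. The defining marker Fxyd5 averaged 21.3 ± 2.17 and 16.4 ± 3.09 CPM and did not pass (adjusted p = 0.436), and Slc47a1 was at most 0.130 CPM. Hypodermis markers summed to 26.6 to 48.4 CPM in OF and 63.0 to 82.8 CPM in SM. Of the 7, Cd34 alone was higher in SM (14.3%, against 10.8% of all genes). Pi16 averaged 1.39 ± 0.872 and 2.92 ± 1.37 CPM and Clec3b 0.585 ± 0.814 and 0.721 ± 0.4 CPM. Chondrocyte markers summed to 86.7 to 118 CPM in OF and 320 to 381 CPM in SM.

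For macrophage, endothelial, red cell, neuron and Schwann and glia markers, 0 of the 12, 12, 7, 7 and 6 genes tested passed in edgeR. At an unadjusted p under 0.05, 0, 0, 0, 1 and 1 of them did, DESeq2 called 1 Schwann and glia marker, and limma-voom called 1 of these and 2 neuron markers. In the 10 libraries alone, 2 endothelial markers passed towards OF, and 1 macrophage and 2 Schwann and glia markers towards SM. Csf1r averaged 23.5 ± 8.29 CPM in OF and 27.2 ± 2.49 CPM in SM, Adgre1 6.47 ± 2.66 and 5.13 ± 0.918 CPM, Pecam1 43.7 ± 9.84 and 36.4 ± 5.54 CPM and Cdh5 81.9 ± 17.4 and 61.1 ± 12.4 CPM. The red cell genes Hbb-bs, which has a near-identical neighbour, and Alas2 read 1206, 1883, 3670.2, 109 and 99.7 and 29.99, 22.2, 64.5, 10.2 and 10.05 CPM in OF against 725, 767, 2604, 106 and 91.9 and 17.7, 20.8, 64.9, 9.09 and 13.7 CPM in SM. The neuronal genes Tubb3 and Snap25 read 25.5, 15.7, 29.8, 13.3 and 16.6 and 10.8, 3.59, 7.77, 0.367 and 0.134 CPM in OF against 14.8, 11.7, 27.4, 0.0649 and 0 and 16.2, 13.8, 14.8, 0 and 0.317 CPM in SM. Stmn2, another neuronal gene, read 28.1, 11.8, 23.3, 0.612 and 0.871 CPM in OF and 50.8, 47.6, 48, 21.8 and 18.8 CPM in SM, lower in OF in every pair (-1.53 ± 0.63, adjusted p = 0.0639), and passed with the replicate number as a block (adjusted p = 0.000916). Within replicates 4 and 5 Stmn2 passed towards SM (0.000531) and Tubb3 towards OF (0.000112). Pericyte markers summed to 245 to 337 CPM in OF and 174 to 238 CPM in SM, with Cspg4 higher in OF, Abcc9 and Notch3 higher in SM, and Rgs5 (adjusted p = 0.45) and Kcnj8 (0.184) not past the test. Cspg4 alone made up most of the sum in every OF library, while the median log2 fold change of the 6 markers was -0.66, towards SM. Osteoclast markers summed to 38.7 to 65.3 CPM in OF and 22.2 to 31.6 CPM in SM. Of the 6 tested, Tnfrsf11a, the receptor RANK, was higher in OF (2.205 ± 0.39), while Acp5, the osteoclast phosphatase, averaged 5.07 ± 1.24 and 5.12 ± 1.74 CPM and Mmp9 0.389 ± 0.317 and 0.412 ± 0.254 CPM. The OF share of this list was 16.7%, near the 14.5% of all genes. Itgb3, an integrin chain, read 42.5, 29.4, 46, 28.8 and 28.1 CPM in OF and 21, 17.1, 21, 22 and 15.5 CPM in SM, without overlap (0.86 ± 0.35, adjusted p = 0.0602), and passed with the replicate number as a block (adjusted p = 0.0342). Epidermal and adipocyte lists held 1 called gene each, Perp and Fabp4, and Krt5, Krt14, Adipoq, Plin1 and Sox10 were under 1 CPM in every library.

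**Figure D4:**
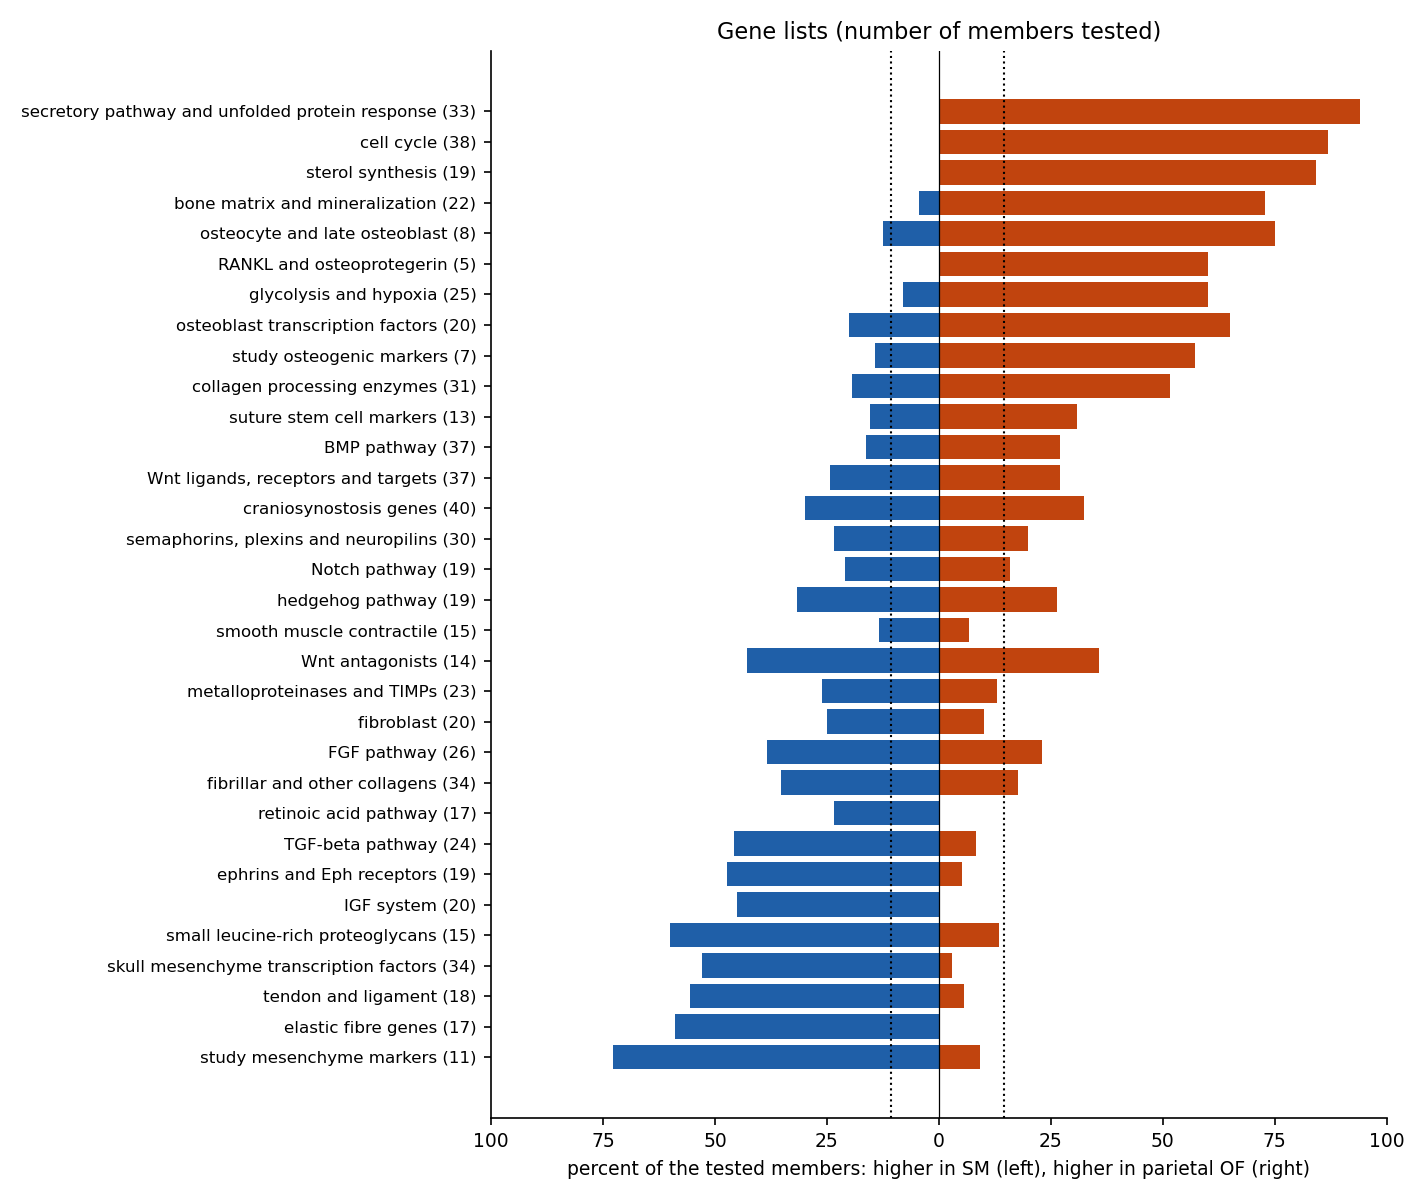
Share of the tested members of each gene list that was higher in SM (blue, to the left) or higher in parietal OF (red, to the right), in percent, with the number tested in brackets. Dotted lines give the same shares over all genes tested, 10.8% and 14.5%; the secretory list reaches 93.9% on the OF side and the elastic fibre list 58.8% on the SM side.

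Of 19 hedgehog genes tested, 5 were higher in OF and 6 higher in SM (median 0.18). The OF side held the ligand Ihh, which osteoblasts and their precursors make, and the genes known to be induced by the signal. Ihh read 18.4, 16.4, 16.9, 18.1 and 17.1 CPM in OF and 1.49, 0.823, 0.66, 0.52 and 0 CPM in SM. Ptch1, the receptor, read 518, 422, 397, 357 and 404 CPM in OF and 115, 117, 78.9, 40.9 and 41.7 CPM in SM. Neither overlapped, and for Ptch1 the SM levels of replicates 4 and 5 lay below those of replicates 1 to 3. The fold changes were 4.62 ± 0.68, adjusted p = 2.95e-08 for Ihh and 2.41 ± 0.22, adjusted p = 1.67e-15 for Ptch1.

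Gli1, the transcription factor most directly induced by the signal, read 93.8, 66.5, 80.1, 65.2 and 68.2 CPM in OF and 35.5, 24.8, 18.49, 11.4 and 9.58 CPM in SM. Hhip, a membrane protein that binds and holds hedgehog ligand, read 99.8, 74.5, 85.9, 95.5 and 106 CPM in OF and 22, 21.9, 12.4, 4.55 and 5.27 CPM in SM. Both were higher in every OF library, and in SM both were again lowest in replicates 4 and 5. Gli1 differed by 1.91 ± 0.31, adjusted p = 4.94e-07, and Hhip by 2.80 ± 0.36, adjusted p = 5.35e-10. Within the litters the Hhip difference was 2.21 for replicates 1 to 3 and 4.35 for replicates 4 and 5, and that of Gli1 1.61 and 2.67. No gene passed a test of the difference between litters, at an adjusted p of 1 for Hhip, and over all genes 204 had an unadjusted p under 0.05.

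Smo, the signal transducer, read 112, 93.2, 114, 98.7 and 99.5 CPM in OF and 151, 154, 132, 138 and 126 CPM in SM, without overlap but not past the test (-0.44 ± 0.20, adjusted p = 0.0981). Smo passed with total counts in place of TMM (adjusted p = 0.0368), in the 10 libraries alone (0.00139) and in DESeq2. Gli2 averaged 65.6 ± 6.71 and 56.7 ± 5.64 CPM (adjusted p = 0.478), and Gli3, which is processed to a repressor, 75.4 ± 13.7 and 104 ± 5.9 CPM (-0.47 ± 0.12, adjusted p = 0.00218). The SM side held the coreceptors Cdon, Boc and Gas1 and the carriers Scube2 and Scube3, but not the carrier Scube1, which read 4.49, 2.54, 3.47, 1.47 and 1.88 CPM in OF and 2.204, 2.06, 2.13, 0.39 and 0.317 CPM in SM and did not pass (0.96 ± 0.61, adjusted p = 0.272). Cdon, a coreceptor, read 108, 84, 93.5, 104 and 88.2 CPM in OF and 329, 329, 393, 351 and 311 CPM in SM, and Scube2, which releases lipid-bearing ligand, 9.55, 4.89, 5.85, 5.75 and 5.49 CPM in OF and 53, 55.5, 70.9, 65.5 and 69.4 CPM in SM. Both were higher in every SM library (-1.84 ± 0.17, adjusted p = 2.05e-15 and -3.32 ± 0.44, adjusted p = 1.73e-09), as were the coreceptors Gas1 (-1.58 ± 0.25) and Boc (-1.17 ± 0.21) and Scube3 (-1.78 ± 0.30). The ligands Shh, at 0 in all 10 libraries, and Dhh were too low to be tested.

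Of 26 FGF genes tested, 6 were higher in OF and 10 in SM (median -0.18). Among these the receptors Fgfr2 and Fgfr3 were higher in OF, and all 6 Fgf genes that passed, Fgf2, Fgf7, Fgf9, Fgf10, Fgf13 and Fgf18, were higher in SM. Fgf1 lay the other way at a low level, with 1.78, 1.49, 2.83, 1.59 and 1.81 CPM in OF and 0.843, 0.274, 0.514, 0 and 0.444 CPM in SM, without overlap, and did not pass (2.17 ± 0.93, adjusted p = 0.0769), while limma-voom (adjusted p = 0.0301), DESeq2 and the fit of the 10 libraries alone (0.0066) called it. Fgfr3, a receptor, read 22.5, 33.6, 21.1, 22.2 and 29.6 CPM in OF and 8.23, 7.75, 4.99, 4.09 and 4.63 CPM in SM, and Fgfr2, mutated in several syndromes of early suture fusion, 445, 363, 393, 413 and 479 CPM in OF and 242, 259.8, 247, 228 and 206 CPM in SM. Both were higher in every OF library (2.12 ± 0.27, adjusted p = 4.32e-10 and 0.82 ± 0.14, adjusted p = 1.19e-06), while Fgfr1 averaged 195 ± 18.51 and 168 ± 13.7 CPM with overlap (adjusted p = 0.31). Fgf18, a ligand of bone and cartilage, read 2.35, 2.35, 2.83, 4.04 and 0.67 CPM in OF and 24, 22.1, 23.2, 26.7 and 17.6 CPM in SM (-3.21 ± 0.53, adjusted p = 7.22e-07), and Fgf2 (-1.46 ± 0.19) and Fgf9 (-3.25 ± 0.69) were also higher in SM. The genes Etv5 (1.27 ± 0.29), Spry2 (1.09 ± 0.32), Spry4 (1.09 ± 0.35) and Dusp6 (1.04 ± 0.34), known to be induced by FGF signals, were higher in OF, though Spry2 and Dusp6 passed within neither litter. Of their relatives in the list, Etv1 and Spred3 were higher in SM, and Etv4, Spry1, Spred1 and Spred2 did not pass.

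In the BMP pathway 10 of 37 genes were higher in OF and 6 in SM (median 0.02). Bmp2, an osteogenic ligand, read 44.6, 51.4, 37.6, 49.4 and 54.3 CPM in OF and 7.71, 11.7, 5.43, 7.47 and 6.03 CPM in SM. Bmp3, a ligand of osteoblasts known as an antagonist, read 111, 147, 127, 133 and 135 CPM in OF and 16.3, 12.8, 21.7, 10.3 and 7.55 CPM in SM. Bmp5, in contrast, read 0.142, 0.434, 0.45, 0.551 and 0.67 CPM in OF and 6.09, 6.17, 6.09, 4.42 and 2.47 CPM in SM. None of the 3 overlapped between the regions, with fold changes of 2.63 ± 0.26, 3.25 ± 0.36 and -3.46 ± 0.51. The pseudoreceptor Bambi (3.05 ± 0.27) and the target Id3 (1.46 ± 0.17) were higher in OF, and the antagonist Grem1 (-3.26 ± 0.82), the binding protein Twsg1 (-1.05 ± 0.17) and the follistatin-like Fstl1 (-1.17 ± 0.12) in SM. Antagonists and binding proteins went both ways, as Chrdl1 and Bmper were higher in OF and Chrd in SM. Among other targets Id1 was higher in OF, and Id2, Id4, Smad6 and Smad7 did not pass. Noggin, Nog, averaged 2.17 ± 1.08 and 0.874 ± 0.657 CPM and did not pass (adjusted p = 0.15).

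TGF-beta genes leaned to the SM, with 11 of 24 higher there and 2 in OF (median -0.55). The ligand Tgfb1 read 39.8, 43.9, 56, 31 and 32.7 CPM in OF and 5.7, 2.95, 7.34, 3.12 and 2.79 CPM in SM (3.22 ± 0.33, adjusted p = 7.29e-14), without overlap. The ligands Tgfb2 (-0.95 ± 0.21) and Tgfb3 (-0.82 ± 0.19) and the receptor Tgfbr2 (-1.38 ± 0.15) were higher in SM. The latent binding protein Ltbp2 read 19.7, 7.93, 15.8, 8.32 and 9.51 CPM in OF and 100.72, 85.3, 133, 89.1 and 91.9 CPM in SM (-3.03 ± 0.46, adjusted p = 7.7e-08), and Ltbp1 (-0.99 ± 0.16) and Ltbp3 (-1.61 ± 0.19) went with it.

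Wnt genes were split nearly evenly, with 10 of 37 ligands, receptors and targets higher in OF and 9 in SM (median 0.04), and 5 of 14 antagonists higher in OF and 6 in SM (median 0.27). The ligand Wnt10b read 27.1, 48.3, 37.8, 39.2 and 37.2 CPM in OF and 3.37, 1.17, 0.293, 0.779 and 0.507 CPM in SM (4.94 ± 0.48, adjusted p = 8.21e-15, and 5.75 without SM replicate 1), and the transcription factor Tcf7 averaged 285 ± 40.04 and 14.6 ± 8.88 CPM (4.29 ± 0.43). The R-spondin Rspo3, a ligand of Lgr receptors, read 6.62, 4.15, 4.5, 1.77 and 1.41 CPM in OF and 30.3, 30.4, 24.5, 40.5 and 49.3 CPM in SM (-3.25 ± 0.49, adjusted p = 5.68e-08). Thus Lgr5 and Rspo3 were on the SM side, and Lgr4 (0.97 ± 0.18) on the OF side. The receptor Fzd1 (-1.001 ± 0.18) and the ligand Wnt11 (-2.66 ± 0.52) were higher in SM. Axin2, a common readout of the canonical pathway, read 33.2, 22.6, 29.1, 27.7 and 29.9 CPM in OF and 26.2, 24.4, 31.9, 22.5 and 24.6 CPM in SM, overlapping (adjusted p = 0.781), and Lef1 averaged 5.33 ± 1.42 and 4.66 ± 2.24 CPM (adjusted p = 0.734).

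The most abundant antagonist was Sfrp2, a secreted frizzled-related protein, at 422, 232, 429.6, 314 and 314 CPM in OF and 4153, 3523, 3770.2, 3952 and 3967 CPM in SM (-3.50 ± 0.29, adjusted p = 9.5e-18). Per kb of exon it stood at 1799 CPM per kb in SM. Dkk1, which blocks Lrp coreceptors, read 54.7, 97, 46.6, 57.4 and 66.1 CPM in OF and 1.49, 2.33, 0.734, 2.47 and 1.59 CPM in SM, and Wif1, which binds Wnt ligands, 54.4, 79, 56.4, 55.9 and 56 CPM in OF and 10.9, 10.8, 8.88, 7.6 and 4 CPM in SM. Sfrp2 was higher in every SM library and the other pair in every OF library, at 5.21 ± 0.58 for Dkk1 and 2.84 ± 0.25 for Wif1. Frzb (4.44 ± 0.72) was also higher in OF, and Dkk3 (-1.59 ± 0.16) in SM.

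**Figure D5:**
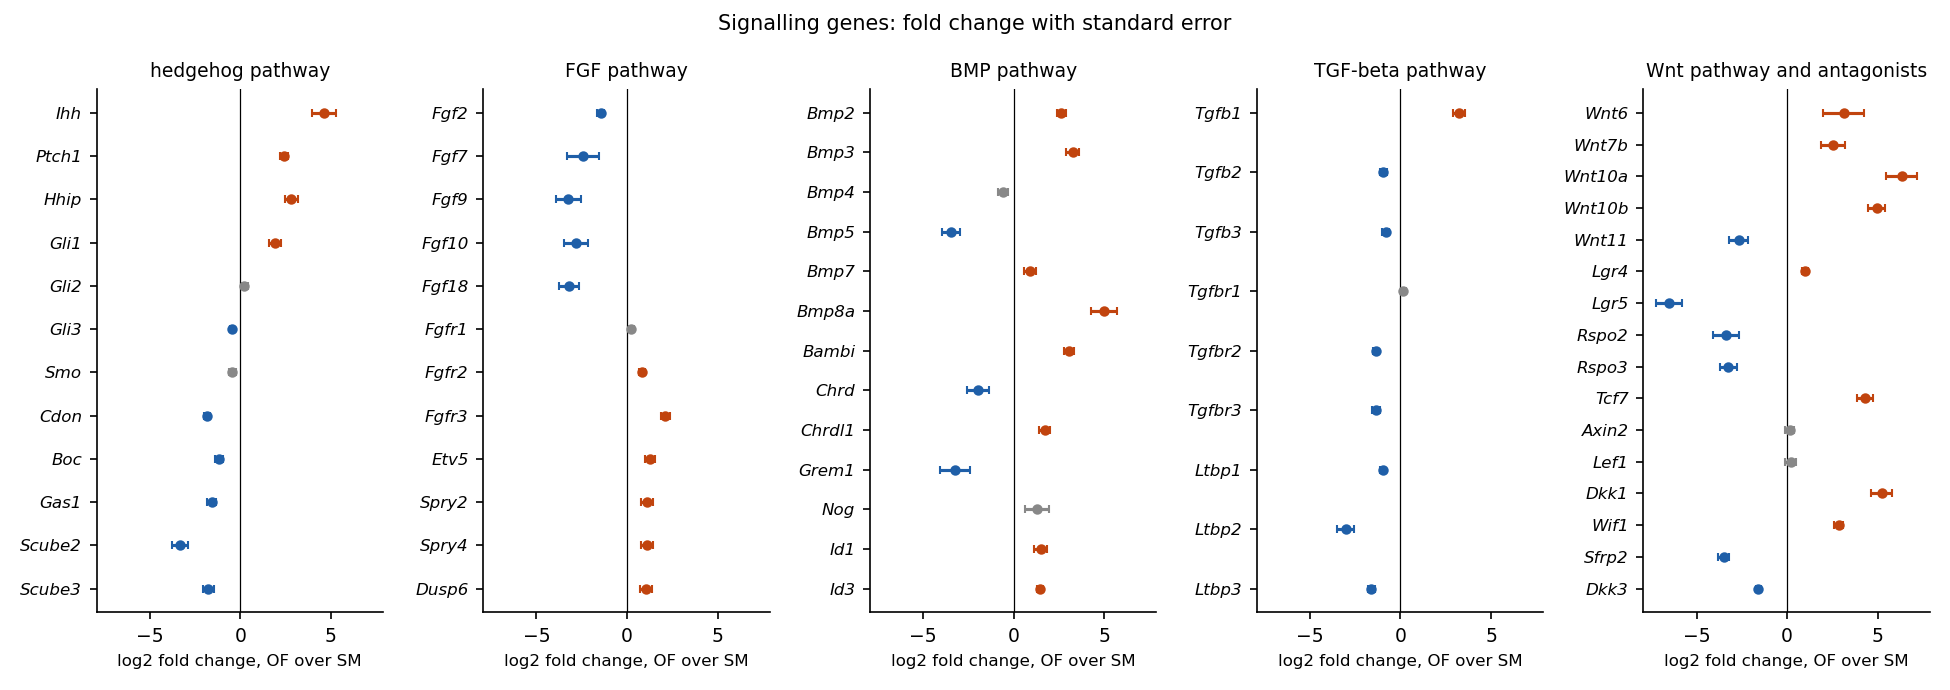
Log2 fold change of OF over SM with its standard error for genes of 5 signalling lists; red points passed the test towards OF, blue points towards SM, and grey points did not pass. Hedgehog coreceptors and carriers (Cdon, Boc, Gas1, Scube2, Scube3), Fgf18 and Ltbp2 lie left of 0, and Ihh, Ptch1, Hhip, Gli1, Fgfr3, Bmp2 and Tgfb1 lie right of it.

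Among the other signalling lists, the insulin-like growth factor system had 9 of 20 genes higher in SM and 0 in OF (median -0.28). At an unadjusted p under 0.05, 4 were higher in OF, and 0 in DESeq2, 1 in limma-voom and 4 in the 10 libraries alone passed in that direction. Igf1 read 66.9, 38, 43, 23.6 and 27.5 CPM in OF and 380.1, 381, 351, 312 and 348 CPM in SM, without overlap (-3.16 ± 0.31, adjusted p = 1.3e-14), and the protease Pappa (-3.22 ± 0.49) and the binding proteins Igfbp2 (-2.64 ± 0.44) and Igfbp4 (-1.15 ± 0.20) followed. Of 19 ephrins and Eph receptors, 9 were higher in SM (median -0.77), among them Epha3 (-1.78 ± 0.18) and Epha7 (-2.28 ± 0.26), and Epha2 was higher in OF (2.45 ± 0.45). Of 17 retinoic acid genes, 4 were higher in SM and 0 in OF (median -0.52, 0 in OF also without adjustment and with the other tools, and 8 in SM in the 10 libraries alone), among them the synthesizing enzyme Aldh1a1 (-4.06 ± 0.84) and the degrading enzyme Cyp26b1 (-1.49 ± 0.30). Another of the 4, the receptor Rxra, lost its call in 18 of 26 alternatives. Semaphorins and their receptors went both ways, 6 of 30 (20%) in OF and 7 (23.3%) in SM (median -0.10), against 14.5% and 10.8% of all genes. Sema3b averaged 179 ± 25.2 CPM in OF against 10.7 ± 1.46 CPM in SM (4.07 ± 0.34) and Sema3c 34.2 ± 7.12 against 154 ± 11.2 CPM (-2.17 ± 0.27). Of 19 Notch genes (median -0.02), 3 were higher in OF, with the target Hes1 at 1.59 ± 0.26, and 4 in SM, with the atypical ligand Dlk1 at -2.37 ± 0.38. The Notch shares were 15.8% in OF, near the 14.5% of all genes, and 21.1% in SM, against 10.8%. Of 15 genes of smooth muscle contraction, 1 was higher in OF (Myocd, 3.18 ± 0.81) and 2 in SM (Tpm1, -1.52 ± 0.12, and Myl9, -1.44 ± 0.32), with a median of -0.55. That is 6.67% and 13.3%, against 14.5% and 10.8% of all genes. Towards SM, limma-voom called 4 and the 10 libraries alone 5.

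Of 5 genes around RANK ligand and osteoprotegerin, 3 were higher in OF and 0 in SM (0 in SM also without adjustment and with the other tools), with Tnfrsf11a as the receptor. Osteoprotegerin, Tnfrsf11b, the decoy receptor that limits osteoclast formation, averaged 4.52 ± 1.34 CPM in OF and 1.14 ± 0.762 CPM in SM (1.98 ± 0.45). Its ligand Tnfsf11 read 0.641, 0.558, 0.45, 0.122 and 0 CPM in OF and 0, 0, 0, 0.13 and 0.0634 CPM in SM, overlapping (adjusted p = 0.0457). With the replicate number as a block its adjusted p was 0.13, and within replicates 4 and 5 the sign turned. Csf1 and Il34, the other genes of the list, did not pass.

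Genes mutated in human craniosynostosis were spread over both regions, with 13 of 40 higher in OF and 12 in SM (median 0.05). Those in OF included Alpl, P4hb, Phex, Bmp2, Ihh, Fgfr2 and Fgfr3. Those in SM included Zic1, Tgfbr2, Msx2, Twist1, the small GTPase Rab23 (-1.51 ± 0.16) and the interleukin 11 receptor Il11ra1 (-1.41 ± 0.23). The list of suture stem cell markers had 4 of 13 higher in OF and 2 in SM (median 0.14). Cd200, a membrane glycoprotein, read 98.2, 150.4, 145, 128 and 166 CPM in OF and 8.23, 4.39, 6.6, 4.74 and 1.84 CPM in SM, without overlap (4.74 ± 0.36, adjusted p = 5.02e-20), and with Gli1 the leptin receptor Lepr (1.70 ± 0.29) and the surface protein Thy1 (1.88 ± 0.37) were higher in OF. Six2 and Prrx1 were higher in SM, and Axin2, Ctsk, Ddr2, Lrig1, Mcam, Nes and Eng did not pass.

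The study picked markers of coronal mesenchyme and of osteogenic cells on samples of this series, so the direction of those lists is not independent evidence. Of 11 mesenchyme markers, 8 were higher in the sagittal SM, 1, Hhip, was higher in the OF and 2 did not pass (median -1.08). Angptl2, a secreted angiopoietin-like protein, read 262, 191, 205, 185 and 187 CPM in OF and 340, 427, 448, 516 and 549.8 CPM in SM (-1.15 ± 0.19, adjusted p = 8.65e-07). The protease Adamts8 (-2.45 ± 0.46), Cd34 (-1.09 ± 0.22) and Igfbp3 (-1.15 ± 0.26) were also higher in SM. Of 7 osteogenic markers, Top2a, Ibsp, Spp1 and Fgfr2 were higher in OF and periostin, Postn, was higher in SM (-0.62 ± 0.19), though the Postn difference passed within neither litter.

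At E16.5 the same suture and regions were captured, again with 5 libraries each and with none shared. No litter label occurs at both ages, so a change with age cannot be told apart from a difference between litters. The OF and SM differed at that age by 3506 genes in the same fit, and a test of whether the difference changed with age called 6 of 19768 genes (0.0304%), with 683 (3.46%) at an unadjusted p under 0.05, fewer than the 1 in 20 that chance gives. With the replicate number as a block it called 23, with DESeq2 20 and with limma-voom 9. Lepr had a larger difference at E16.5 (3.59) than at E18.5 (1.70), a change of -1.89 ± 0.40 (adjusted p = 0.0394). In the SM it read 13.7, 19.2, 8.95, 11.6 and 8.16 CPM at E16.5 and 44.7, 42.3, 30.8, 13.3 and 11.7 CPM at E18.5, and in the OF 128, 131, 137, 178 and 169 CPM and 112, 76.6, 102, 83.6 and 89.8 CPM. The lowest OF library was above the highest SM library at both ages, and at E18.5 the SM of replicates 1 to 3 lay above that of replicates 4 and 5. The SM values of E18.5 replicates 4 and 5 lay within the range of the SM at E16.5. Epha4, an Eph receptor, was higher in OF at E16.5 (1.15) and stood at -0.40 at E18.5, a change of -1.56 ± 0.30 (adjusted p = 0.0165).

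The other 4 genes moved towards the OF with age. Anxa2, an annexin that binds membranes, changed from 0.46 at E16.5 to 1.65 at E18.5, by 1.19 ± 0.24 (adjusted p = 0.0165). It read 414, 425, 416, 505 and 485 CPM in OF and 282, 313, 356, 354 and 326 CPM in SM at E16.5, and 506, 608, 671, 589 and 613 CPM in OF and 168, 177, 188, 203 and 215 CPM in SM at E18.5, so the gap widened on both sides. Aplnr, the apelin receptor of vessels, changed from -1.62 to 1.01, by 2.63 ± 0.56 (adjusted p = 0.0394). Col4a1, a basement membrane collagen, changed from -1.47 to -0.18, by 1.29 ± 0.25 (adjusted p = 0.0165), and Rerg, a small GTPase, from 1.13 to 2.81, by 1.68 ± 0.36 (adjusted p = 0.0402). For the hedgehog genes the E16.5 values were 5.16 for Ihh, 3.32 for Ptch1, 2.94 for Gli1 and 4.85 for Hhip, each above its E18.5 value, and the change did not pass for any of them, at an adjusted p of 0.19 for Hhip and at least 0.714 for the other 3. The 6 calls were unstable: without replicate 2, 3 or 4 at both ages 0 were left, without replicate 1 there were 5 and without replicate 5 there was 1.

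The lambdoid suture borders the same parietal bone, and its SM and parietal OF were captured at E18.5 in 5 libraries each. A test of whether the OF and SM difference was unlike in the sagittal and lambdoid sutures called 0 genes (0%) in edgeR, with 567 at an unadjusted p under 0.05, while DESeq2 called 5 and limma-voom called 0. Side by side, the sagittal and lambdoid differences were 2.80 and 2.38 for Hhip, 4.62 and 5.56 for Ihh, 6.91 and 7.45 for Ibsp, -6.50 and -5.52 for Lgr5 and -2.28 and -1.79 for Acan.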

How the data were processed

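Regions were laser-captured from sections of wild-type calvaria, and their RNA was amplified with the Ovation RNA-Seq System V2 and sequenced as Nextera XT libraries. Per the labels and the methods of the study, the authors trimmed reads with cutadapt, aligned them to mm10 with STAR 2.5.3a and counted read pairs per gene with featureCounts 1.6.4, without strand and without multi-mapping pairs. The deposited counts are raw counts of 55487 genes, so gene copies and antisense partners that share sequence cannot be fully separated. A deposited file of log2 ratios between regions made by the authors was not used.

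SM and parietal OF were compared with edgeR 4.0.16 (quasi-likelihood test, TMM scaling, Benjamini-Hochberg adjustment) in a fit of the first library of each of the 100 captures of all sutures and both ages, with 1 mean per group. The fit held 19768 genes, those that reached 1 CPM or more in over 10% of its libraries. CPM use TMM-scaled totals. Alternatives were DESeq2 1.42.0, limma-voom 3.58.1, other scalings and filters, the 10 libraries alone, each litter, left-out libraries and pairs, and the replicate number as a block. A left-out pair was dropped together with the pairs of that number in the E16.5 sagittal and E18.5 lambdoid sutures. The labels pair the libraries, since both libraries of a number carry the same litter identifier, and deviations from the region means of same-numbered libraries correlated at 0.0567 to 0.244 (median 0.178), against a median of 0.103 for other numbers of the litter and -0.141 across litters. No 2 libraries agreed within sampling noise.

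Named genes were the 12 of largest fold change in each direction with at least 5 CPM and no overlap, up to 4 called members of each list and direction with the smallest adjusted p, defining markers, and up to 5 genes per direction of each difference test. Gene lists and members were chosen with earlier results of these data known, and further genes were named after their values were seen, among them Col1a1, Col1a2, Enpp1, Bglap and the additional members given beside list counts. A few members of the lists are counted but not reported here by name. Promoters are from RefSeq. The scripts were tested on simulated counts drawn from the fitted means and spread. Of 100 genes changed 2-fold 37 passed, and of 100 changed 3-fold 54 passed, all in the right direction. Among the unchanged genes 1 passed. A gene that did not pass can therefore still differ. No other genes were changed in the simulation, whereas 5008 of 19768 genes were called in the data. The Benjamini-Hochberg cutoff depends on that share, so the recovery in the simulation is not that of the real comparison.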

Additional observations from a re-analysis of the deposited data

Results flagged for a closer look

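Of 470 groups of 5 values tested for an outlying library, 32 had a gap between the extreme library and its nearest neighbour above 0.71 of the range, where chance gives about 1 in 20. In OF replicate 1 the high values were those of Angptl2 (ratio 0.738), Fat2 (1, with the other 4 libraries at 0), Fstl1 (0.753), Lgr5 (0.748), Mybpc1 (0.765), Pappa (0.928), Scube2 (0.795) and Zic1 (0.722). All were genes higher in SM. In OF replicate 2 they were Col13a1 (0.787), Frzb (0.797), Ifitm5 (0.788), Lipi (0.756), Ramp1 (0.743) and Wif1 (0.919), all genes higher in OF. In SM replicate 1 they were Chad (0.787), Col11a2 (0.878), Col24a1 (0.718), Ifitm5 (0.756), Slc36a2 (0.76) and Wnt10b (0.717), again genes higher in OF. These 3 libraries thus held high values of genes of 1 region each, and the cause was not tested. The others were Clec3b (0.816) and Kera (0.767) in OF replicate 4, Lrp1b (0.78), Myh3 (0.789) and Rgs5 (0.757) in OF replicate 5, Fgf1 (0.76) in OF replicate 3, Wnt10a (0.865) in SM replicate 2, and Nfatc1 (0.818), Alas2 (0.791), Hbb-bs (0.731) and the summed red cell markers (0.743) in SM replicate 3. The single low value was that of Il11ra1 (0.882) in SM replicate 3.

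The difference between OF and SM changed with age for 6 genes, by 1.19 for Anxa2, 2.63 for Aplnr, 1.29 for Col4a1, -1.56 for Epha4, -1.89 for Lepr and 1.68 for Rerg (log2, E18.5 minus E16.5), in an interaction test in edgeR. No litter label occurs at both ages.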

How the results depend on the processing

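The number of genes that differed between SM and parietal OF moved by over 1.5 times under these settings. The 10 libraries alone gave 8441 genes (4378 higher in OF, 4063 higher in SM), and with the replicate number as a block as well 9070 (4686 and 4384). The litter of replicates 1 to 3 alone gave 2833 (1751 and 1082) and that of replicates 4 and 5 gave 2323 (1451 and 872), with fewer libraries in the comparison. With the replicate block in the fit of all captures there were 5156. The block ended the calls of Chad and Tnfsf11, let Col1a2, Itgb3 and Stmn2 pass, and changed no other call among the 239 genes given with a fold change or adjusted p. Leaving out a library or a pair gave 3796 to 4900 genes, 2261 to 2984 higher in OF and 1535 to 1976 higher in SM. Leaving out 1 library gave 4259 to 4900. Here and below, a left-out pair was dropped together with the same-numbered pairs of the E16.5 sagittal and E18.5 lambdoid sutures. The other tools, scalings and filters stayed within 1.5 times.

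For the change with age, 6 genes became 20 with DESeq2, 23 with the replicate block and 0 with total counts in place of TMM, and 0 to 5 without 1 pair. For the difference between the sagittal and lambdoid sutures, 0 became 5 with DESeq2 and stayed at 0 without any 1 pair. The cause was not tested.

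Of 220 named genes that passed the test, 178 kept the call and direction in all 26 alternatives. The other 42 lost the call within a litter, and 6 of them also under another tool, scaling, filter, block or fit. Without 1 library or pair 20 lost it, with a largest adjusted p of 0.112 for Aplnr (OF 3, SM 1, SM 2, SM 4, pair 1, pair 2, pair 4, pair 5), 0.119 for Car9 (OF 1, OF 2, SM 3, pair 1, pair 2, pair 3, pair 5), 0.199 for Chad (OF 2, OF 3, SM 2, SM 3, SM 4, SM 5, pair 2, pair 3, pair 4, pair 5), 0.0708 for Cpa3 (pair 4, pair 5), 0.119 for Dusp6 (pair 4), 0.0615 for Fabp4 (SM 1, pair 3), 0.0592 for Hapln1 (pair 5), 0.0837 for Hey1 (OF 1, SM 3, SM 4, pair 3, pair 4, pair 5), 0.145 for Mcpt4 (OF 2, OF 3, OF 4, OF 5, SM 5, pair 2, pair 3, pair 4, pair 5), 0.126 for Mmp8 (OF 2, SM 5, pair 2, pair 3, pair 5), 0.116 for Notch3 (OF 2, OF 4, OF 5, SM 3, pair 2, pair 4, pair 5), 0.154 for Perp (OF 2, SM 2, SM 3, SM 4, pair 2, pair 3, pair 4), 0.063 for Postn (pair 4), 0.0531 for Prrx2 (pair 5), 0.186 for Rxra (OF 2, OF 3, OF 4, OF 5, SM 1, SM 3, SM 4, SM 5, pair 1, pair 2, pair 3, pair 4, pair 5), 0.107 for Spry4 (pair 2), 0.201 for Tbx18 (OF 1, OF 2, OF 4, OF 5, SM 5, pair 1, pair 2, pair 4, pair 5), 0.192 for Tnfsf11 (OF 1, OF 2, OF 3, SM 1, SM 2, SM 3, SM 5, pair 1, pair 2, pair 3), 0.057 for Tpsb2 (pair 5) and 0.0693 for Vegfa (pair 4), where the brackets name the left-out libraries or pairs that ended the call. For 19 of the 220 the log2 difference moved by over 1.5 times on the linear scale without 1 library, among them Bglap (7.02 without SM 4), Kera (-6.43 without OF 4), Mcpt4 (-5.45 without OF 1), Tbx18 (-3.62 without OF 3) and Tnfsf11 (3.89 without SM 4). Of 94 counts of list members per direction, 42 moved by over 1.5 times in at least 1 alternative. Of the called genes only Tnfsf11 changed sign, to -0.56 within replicates 4 and 5. Of 19 genes given with a fold change or adjusted p that did not pass, 14 passed in at least 1 alternative. Of these, Fxyd5, Kcnj8, Nog, Rgs5, Scube1 and Tnnt3 passed in the 10 libraries alone, with or without the block, Lef1 within replicates 4 and 5, and Epha4 also without OF replicate 1. Col1a2, Fgf1, Itgb3, Smo, Stmn2 and Tubb3 passed under another tool, scaling, filter or block. Rgs5 was at 0.24 within replicates 4 and 5. Col1a1 fell below 0 within replicates 4 and 5 (-0.16) and between -0.0029 and 0.17 without 1 library or pair. Lef1 was at -0.45 within replicates 1 to 3 and at -0.059 to 0.51 without 1 library or pair.

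The 5 libraries per region came from 2 litters, which limits how far the spread between them stands for other litters. RNA was amplified from captured tissue, and genes at few counts have wide errors. Whether the captured regions of each embryo were of like extent is not given in the sources used here.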

Other observations

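The following genes are in none of the gene lists and were chosen for small p-values after these were seen. Me2, the mitochondrial malic enzyme, read 159, 217, 163, 197.7 and 227 CPM in OF and 24.6, 19.1, 21.4, 20.8 and 15.2 CPM in SM, without overlap (3.25 ± 0.20, adjusted p = 2.71e-25, edgeR). Cdkn1a, the cell cycle inhibitor p21, read 231, 198.2, 235, 178 and 197.7 CPM in OF and 10.7, 6.03, 11.6, 5.59 and 5.96 CPM in SM (4.71 ± 0.33, adjusted p = 3.15e-21). It was thus higher in the same region as the cell cycle genes, and whether the same cells held both cannot be told from bulk RNA. St3gal1, a sialyltransferase, averaged 134 ± 6.66 against 22.3 ± 3.43 CPM (2.59 ± 0.18).

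On the SM side, Fat4, an atypical cadherin, read 271, 154, 209.8, 199 and 208 CPM in OF and 1177, 1199, 1353, 1235 and 1271 CPM in SM, without overlap (-2.58 ± 0.15, adjusted p = 8.45e-26). The secreted growth factor pleiotrophin, Ptn, read 589, 476, 447, 543 and 513 CPM in OF and 2609, 2439, 2137, 2546 and 2596 CPM in SM (-2.26 ± 0.16, adjusted p = 1.03e-20). Hemicentin 1, Hmcn1 (-2.40 ± 0.16), the growth hormone receptor Ghr (-2.67 ± 0.20) and the receptor phosphatase Ptprd (-1.63 ± 0.12) were likewise higher in SM.

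The 4 libraries of the undivided sagittal suture at E18.5 share 1 replicate number, so they may come from 1 sample, and they entered no comparison. On plain totals Ibsp ranged there from 1073 to 1445 CPM, Sfrp2 from 1402 to 1854 CPM, Hhip from 17.7 to 33.1 CPM, Ihh from 1.7 to 1.99 CPM and Lgr5 from 66.4 to 92.9 CPM.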
